A study of Mus musculus with 16 samples.

Results

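The RNA of 10 genes of cellular zinc handling was read in the cortex and cerebellum of 8 mice. They are the zinc exporters Slc30a1, Slc30a3, Slc30a4 and Slc30a5, the zinc importers Slc39a1, Slc39a10 and Slc39a12, and the metallothioneins Mt1, Mt2 and Mt3. They were taken by name from a given list, and all 10 were found among 37583 listed genes, 27196 of which had at least 1 count. The study set brain RNA beside measurements of protein glycosylation and included mice with an altered Slc39a8, the gene of a manganese, zinc and iron importer. The mice were of the strain C57BL/6J, with 4 wild-type mice and 4 mice labelled as carrying the A391T change in Slc39a8, which the labels also call A393T. Each mouse gave 1 cortex and 1 cerebellum library, so that 4 libraries formed each of the groups wild-type cortex, A391T cortex, wild-type cerebellum and A391T cerebellum. Libraries are named as in the labels, CTX for cortex and CBLM for cerebellum with the number of the mouse. According to the study's methods both regions came from the same animals and the cortex sample was frontal. The wild-type mice were males of 12 weeks. The age, sex and zygosity of the A391T mice are not given in the sources used here. No agent was given.

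Cells hold free zinc low with transporters of 2 families and with binding proteins. Proteins of the Slc30 family (ZnT) move zinc out of the cytosol, across the plasma membrane or into vesicles and the Golgi, and those of the Slc39 family (ZIP) move it into the cytosol. Metallothioneins are small, cysteine-rich proteins that bind zinc and copper. Mt1 and Mt2 are induced by metals through the zinc-sensing transcription factor Mtf1 and by glucocorticoids, and in brain they are known mainly from glia. Mt3 is the brain form and is not induced by metals in the same way. In the forebrain, glutamatergic neurons of a subset store zinc in synaptic vesicles, which Slc30a3 fills.

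Mt1, Mt2 and Mt3 are neighbours on chromosome 8, all on the plus strand (NCBIM37 assembly, mm9), Mt3 from 96676507 to 96678048, Mt2 from 96696518 to 96697467 and Mt1 from 96702989 to 96704225. Their exons share no bases with another annotated gene. The bases before the starts of Mt1 and Mt2 are shown because these genes had the largest difference between regions among the metallothioneins and a known metal response. They are those of RefSeq on the GRCm38.p6 assembly, a later build than that of the counts, at chr8:94178839-94179088 for Mt1 and chr8:94172368-94172617 for Mt2, both on the plus strand. Capitals mark the core letters of the metal response element, TGCACNC or TGCGCNC, searched on both strands.
Mt1: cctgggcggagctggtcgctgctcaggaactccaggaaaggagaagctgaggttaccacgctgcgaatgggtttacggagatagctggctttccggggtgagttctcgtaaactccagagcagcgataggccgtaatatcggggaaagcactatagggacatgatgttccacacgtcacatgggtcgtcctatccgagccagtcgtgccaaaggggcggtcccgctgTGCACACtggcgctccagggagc
Mt2: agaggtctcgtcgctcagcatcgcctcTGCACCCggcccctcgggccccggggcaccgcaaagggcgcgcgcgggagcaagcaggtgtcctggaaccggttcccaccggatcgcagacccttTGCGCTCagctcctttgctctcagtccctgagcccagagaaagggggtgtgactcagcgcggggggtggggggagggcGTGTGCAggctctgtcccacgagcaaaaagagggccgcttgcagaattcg
In these 250 bases Mt1 held 1 match, 23 bases before the start, and Mt2 held 3 matches, 223, 128 and 50 bases before it. The last of these lies on the minus strand, and no 2 matches overlap. Of 32851 windows of the same length before gene starts in the RefSeq table, 21.4% held at least 1 match and 1.26% held at least 3. Slc30a4 held 2, where 5.17% of all windows held at least 2. Slc30a1, Slc30a5 and 1 of the 2 starts of Slc30a3 held 1 each, and Mt3, Slc39a1, Slc39a10 and Slc39a12 held 0. The counts depend on the window and on the RefSeq start from which it is measured, and bases further into the gene were not searched. With the 50 bases after the start included, Mt1 held 3, Mt2 4, Mt3 1, Slc30a1 2 and Slc30a4 3, where 25.7% of all such windows held at least 1 and 1.97% at least 3. A match is a run of letters and not a bound site.

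Counts on genes ran from 20813432 to 30497206 per library, and they are whole reads counted without regard to strand. Levels are given in TPM, counts per base of the gene length in the authors' RPKM table, rescaled so that every library has an equal sum, with the SD over libraries. Values of single libraries follow the order CTX447, CTX448, CTX479 and CTX480 for wild-type cortex, CTX445, CTX446, CTX461 and CTX462 for A391T cortex, and the same mice in that order for CBLM. Marker genes separated the regions as labelled. Tbr1, a cortical transcription factor, had from 112 to 130 TPM in cortex and from 0.540 to 0.894 TPM in cerebellum. The 7 listed cortex markers together summed to 2396 to 2974 TPM in cortex and to 743 to 995 TPM in cerebellum, where Slc17a7, a vesicular glutamate transporter, had from 732 to 981 TPM. The 8 cerebellar markers summed to 3339 to 3784 TPM in cerebellum and to 21.7 to 37.0 TPM in cortex. The count files and the RPKM table name 4 mice differently. In the table, the columns of the mice of CTX447 and CTX448 carry the values of those of CTX461 and CTX462 and the reverse, in both regions, so that the genotype of these 4 mice differs between the sources and the region does not. Names follow the count files here, and genotype results are also given under the names of the table where these change them. The A391T library CBLM445 stood apart. Its genes differed from the median of their region by a median of 0.317 on the log2 CPM scale, against 0.0785 to 0.201 for the other 15 libraries within their regions. The values that it moved most are also given without it. In tissue RNA, fewer cells of a type and less RNA per cell cannot be told apart.

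With the gene lengths of the RPKM table, Mt3 was the most abundant member in both regions. In wild-type cortex it reached 2359 ± 307 TPM (SD, n = 4), the 15th highest mean level of 16040 genes, and in wild-type cerebellum 1873 ± 114 TPM (SD, n = 4), the 22nd highest. Over the 8 cortex libraries of both genotypes the order of levels per length was Mt3, Mt1, Mt2, Slc30a3, Slc39a10, Slc39a12, Slc30a5, Slc30a4, Slc39a1 and Slc30a1. Over the 8 cerebellum libraries it was Mt3, Mt2, Mt1, Slc39a12, Slc30a5, Slc39a1, Slc39a10, Slc30a4, Slc30a1 and Slc30a3. Neighbours in these orders were compared within each library. The orders come from the same libraries, so the pairs and their direction were not set in advance. Of 18 neighbour pairs, 14 differed with an adjusted p under 0.05 by a two-sided exact sign-flip test with Benjamini-Hochberg adjustment, where 0.0078 is the smallest p that 8 libraries allow. The 4 pairs that did not were Slc39a12 and Slc30a5 in both regions, Slc30a4 and Slc39a1 in cortex, and Slc39a1 and Slc39a10 in cerebellum. Slc39a1 lay above Slc39a10 in 2 of 8 cerebellum libraries, CBLM445 among them at 53.8 against 19.1 TPM, and in wild-type cerebellum the mean of Slc39a10 was the higher, 45.8 against 44.5 TPM. The ratio of Slc39a12 to Slc30a5 ran from 0.963 to 1.13 in cortex and from 0.575 to 1.44 in cerebellum.

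**Figure D1:**
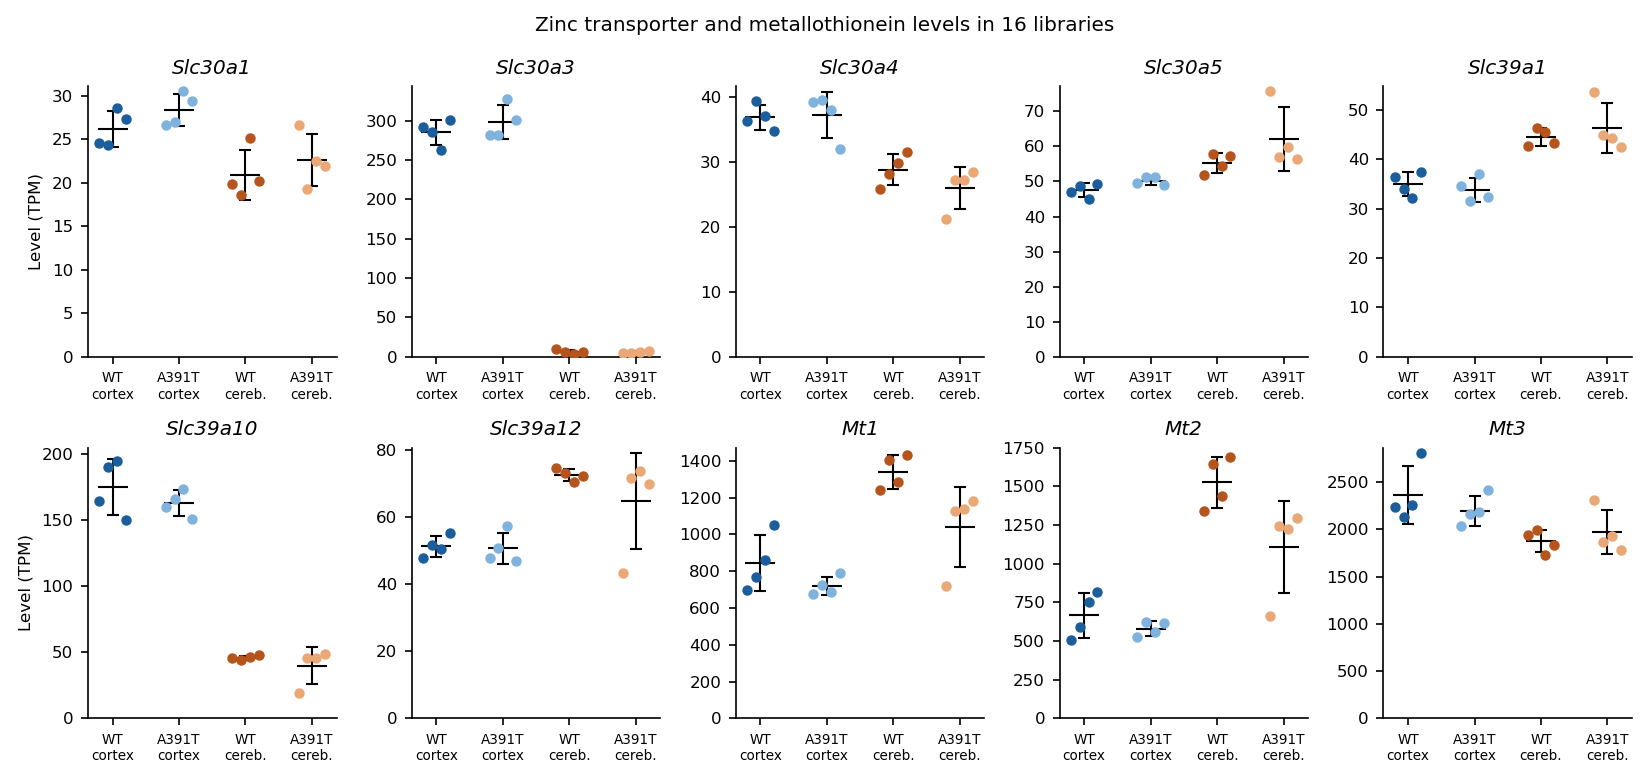
Level of each of the 10 genes in TPM (y axis, from 0) in the 4 groups of libraries (x axis: wild type, WT, and A391T, in cortex and cerebellum, cereb.). Each point is 1 library, and the bars give the mean and SD of 4 libraries. Slc30a3 falls from 263 to 328 TPM in cortex to 4.14 to 9.56 TPM in cerebellum, and in the A391T cerebellum group 1 library, CBLM445, lies apart in several panels.

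The position of the metallothioneins depended in part on the gene length. With the length of the longest protein-coding transcript of the annotation, 631 bases for Mt1 in place of 878, Mt1 lay above Mt2 in cerebellum too, by 1.28 times, against 1.09 times below it with the length of the table. Mt1 and Mt3 then did not differ in cerebellum, with a ratio of Mt3 to Mt1 from 0.915 to 2.30 (adjusted p = 0.11 by the exact sign-flip test). With these lengths Slc30a4 lay above Slc39a1 in cortex in 8 of 8 libraries, by 1.46 times (adjusted p = 0.011 by the exact sign-flip test), and Slc39a10 and Slc30a4 in cerebellum no longer passed (adjusted p = 0.080 by the same exact test). Comparisons of 1 gene between regions or genotypes do not depend on its length.

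In wild-type mice 9 of the 10 genes differed between cortex and cerebellum with an adjusted p under 0.05 from edgeR's quasi-likelihood test over 16040 genes. Slc30a1, Slc30a3, Slc30a4, Slc39a10 and Mt3 were higher in cortex, 5 of 10, where 33.1% of all genes tested were. Slc39a1, Slc39a12, Mt1 and Mt2 were higher in cerebellum, 4 of 10, where 34.7% of all genes tested were. A 2-fold change was passed as well by Slc30a3 and Slc39a10 toward cortex, where 14.2% of all genes did so, and by Mt2 toward cerebellum, where 10.5% did so. The median log2 fold change of the 10 genes, cerebellum over cortex, was -0.20, and that of all genes was 0.02. TPM did not overlap between the regions for 9 of the 10 genes, and for 65.9% of all genes. TMM normalization set the scale here, and with library totals in its place the median of all genes moved up by 0.12 on the log2 scale.

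**Figure D2:**
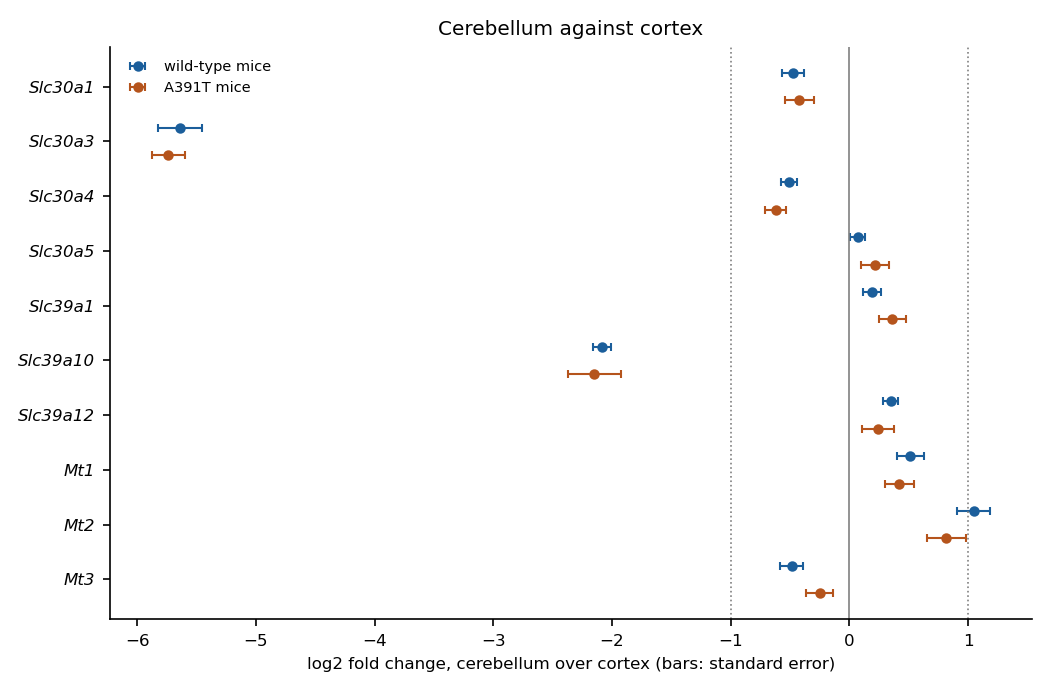
Log2 fold change of cerebellum over cortex (x axis) for the 10 genes (y axis) from edgeR, in the 4 wild-type and the 4 A391T mice, with bars of 1 standard error. Dotted lines mark a 2-fold change in either direction. Slc30a3 and Slc39a10 lie left of the dotted line in both genotypes, while Mt2 lies right of it at 1.05 in wild-type mice and inside it at 0.82 in A391T mice.

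Among the exporters, Slc30a3, which loads zinc into synaptic vesicles, had the largest difference. Its level was 292, 285, 263 and 300.4 TPM in the wild-type cortex libraries, and 9.56, 5.55, 4.14 and 6.16 TPM in the cerebellum libraries of the same mice. Cortex was higher in every mouse, and the groups lay far apart. On the log2 scale the fold change was -5.64 (SE 0.19, adjusted p = 5.2e-10 from edgeR), a 49.8-fold difference. The cerebellum libraries of both genotypes still held from 57 to 130 counts of Slc30a3, above the limit of 3 that a count of 0 allows. Slc30a3 was 9.18 to 11.9 times as high as Slc30a1 within the 8 cortex libraries and 0.165 to 0.481 times as high within the 8 cerebellum libraries. The cortical marker Tbr1, above, moved with it, and its part in the result was not tested.

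The other exporters differed less. Slc30a1, the zinc exporter of the plasma membrane and itself an Mtf1 target, had 24.6, 24.4, 28.6 and 27.3 TPM in the wild-type cortex libraries, and 19.9, 18.6, 25.1 and 20.2 TPM in the cerebellum libraries of the same mice. CBLM479 lay among the cortex values, so the ranges overlapped. Its log2 fold change was -0.48 (SE 0.09, adjusted p = 0.00072 from edgeR). Slc30a4, an exporter into endosomal vesicles, had from 34.7 to 39.4 TPM in wild-type cortex and from 25.8 to 31.5 TPM in wild-type cerebellum. Its log2 fold change was -0.51 (SE 0.07, adjusted p = 3.7e-05 from edgeR), with cortex higher in 8 of 8 mice of both genotypes. Slc30a1 shares 8.92% of its exon bases and Slc30a4 2.37% with a gene on the other strand, 1700034H15Rik and 4930417H01Rik, and reads there could not be given to one gene.

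Slc30a5, which carries zinc into the Golgi and the early secretory pathway, was the 1 member that did not pass in wild-type mice. It had 46.9, 48.8, 44.9 and 49.2 TPM in the wild-type cortex libraries, and 51.7, 57.9, 54.4 and 57.2 TPM in the cerebellum libraries of the same mice. In TPM the groups did not overlap, with cerebellum higher in 8 of 8 mice of both genotypes, but after TMM normalization the log2 fold change was 0.07 (SE 0.06, adjusted p = 0.35 from edgeR). With library totals it was 0.19 (adjusted p = 0.029), so the call for this gene rests on the scaling.

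Among the importers, Slc39a10, at the plasma membrane, was the gene with the largest difference. It had 165, 190, 195 and 149.9 TPM in the wild-type cortex libraries, and 45.3, 43.9, 46.1 and 47.8 TPM in the cerebellum libraries of the same mice. Cortex was higher in every mouse without overlap. In log2 terms the fold change was -2.08 (SE 0.08, adjusted p = 1.3e-09 from edgeR), a 4.24-fold difference. Slc39a12, an importer known mainly from brain and from astrocytes, went the other way. It had 47.8, 51.8, 50.6 and 55.4 TPM in wild-type cortex and 74.7, 73.3, 70.5 and 72.3 TPM in wild-type cerebellum. The gene had a log2 fold change of 0.35 (SE 0.06, adjusted p = 0.00047 from edgeR). Within a library, Slc39a10 was 2.71 to 3.84 times as high as Slc39a12 in the 8 cortex libraries and 0.439 to 0.696 times as high in the 8 cerebellum libraries.

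Slc39a1, a widely expressed importer of the plasma membrane, had from 32.1 to 37.4 TPM in wild-type cortex and from 42.7 to 46.4 TPM in wild-type cerebellum. The log2 fold change was 0.19 (SE 0.08, adjusted p = 0.040 from edgeR). This call was the weakest of the 9. With the mouse as a replicate block the adjusted p was 0.073, and it also lay above 0.05 with RLE size factors (0.061), without the filter on low counts (0.064), with DESeq2 (0.064), in 1 model of all 16 libraries (0.095), with the mice of matching names (0.28) and without any 1 of 4 libraries, CTX448 (0.094), CTX479 (0.11), CBLM448 (0.099) or CBLM479 (0.11). With library totals it was 0.31 (adjusted p = 0.0061). A pseudogene, Slc39a1-ps, is listed among the genes, and reads that match both are uncertain.

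The metallothioneins split. Mt1 had 699, 770, 862 and 1050.5 TPM in the wild-type cortex libraries, and 1243, 1403, 1285 and 1434 TPM in the cerebellum libraries of the same mice. Mt2 had 503, 592, 751 and 818 TPM in cortex and 1339, 1642, 1441 and 1687 TPM in the cerebellum libraries of the same mice. Both were higher in cerebellum in every mouse without overlap, with CTX480 and CBLM480 the highest. The log2 fold change was 0.52 for Mt1 (SE 0.11, adjusted p = 0.0019 from edgeR) and 1.05 for Mt2 (SE 0.14, adjusted p = 4.5e-05), the latter a 2.07-fold difference. Mt2 kept its adjusted p without each library in turn but fell under 2-fold without CTX447 (0.94) or CTX448 (0.99), and was 0.89 under the names of the RPKM table.

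Mt3 had 2241, 2129, 2256 and 2811 TPM in the wild-type cortex libraries, and 1935, 1991, 1731 and 1836 TPM in the cerebellum libraries of the same mice. All 4 cortex values lay above all 4 cerebellum values, with CTX480 the highest. Cerebellum over cortex gave a log2 fold change of -0.48 (SE 0.10, adjusted p = 0.00096 from edgeR). Of the summed TPM of Mt1, Mt2 and Mt3, Mt3 made up from 58.3% to 65.1% in the 8 cortex libraries and from 37.0% to 62.6% in the 8 cerebellum libraries. The highest cerebellar share was that of CBLM445. The sum itself ran from 3231 to 4679 TPM in cortex and from 3691 to 5036 TPM in cerebellum.

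**Figure D3:**
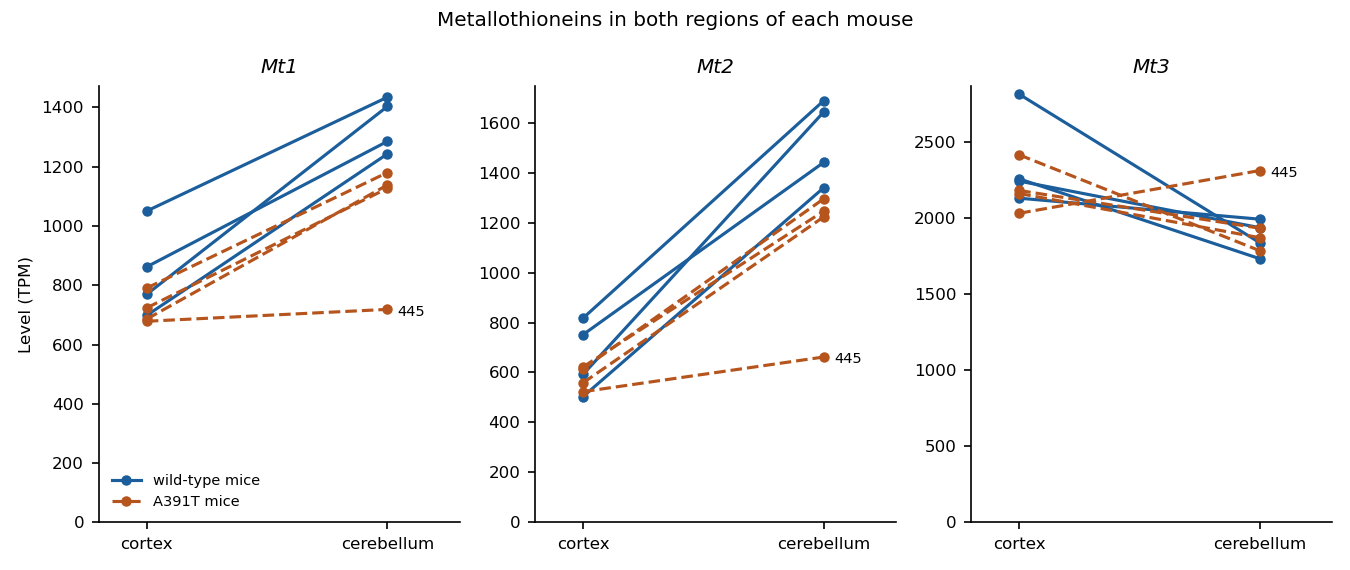
Level of Mt1, Mt2 and Mt3 in TPM (y axis, from 0) in the cortex and cerebellum (x axis) of each mouse, with a line joining the 2 libraries of 1 mouse. Solid lines are wild-type and broken lines A391T mice by the names of the count files. In these TPM, which are not TMM-scaled, Mt1 and Mt2 rise to the right in 8 of 8 mice and Mt3 falls in 7 of 8. Mt1 rises least in the mouse of CBLM445, by a log2 of 0.083, and CBLM445 is marked.

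Markers of some cell types other than neurons also differed between the regions. The sums of 5 oligodendrocyte markers, from 3523 to 4138 TPM in cortex and from 3368 to 5211 TPM in cerebellum, and of 5 endothelial markers, from 276 to 451 TPM and from 269.9 to 364 TPM, overlapped. The 10 astrocyte markers summed to 2946 to 3418 TPM in cortex and to 5361 to 6567 TPM in cerebellum, with none at 0. They did not all go the same way. Slc1a3 had from 214 to 254 TPM in cortex and from 446.2 to 579 TPM in cerebellum, while Slc1a2 had from 578 to 738 TPM in cortex and from 109 to 189 TPM in cerebellum. The 6 markers of Bergmann glia, the radial astrocytes of the cerebellum, summed to 460 to 539.5 TPM in cortex and to 2014 to 2269 TPM in cerebellum. Between the regions, both sums moved with Mt1, Mt2 and Slc39a12. CBLM445 had the lowest cerebellar levels of these genes and the lowest cerebellar astrocyte sum, 5361 TPM, but the highest Bergmann glia sum, 2269 TPM. The part of these markers in the differences was not tested. The 5 microglia markers went the other way, from 239.7 to 288 TPM in cortex and from 55.6 to 80.6 TPM in cerebellum, as did the genes higher in cortex, and their part was not tested either. The 6 choroid plexus markers summed to 2401 to 8113 TPM in 6 cerebellum libraries and to 51.1 and 52.8 TPM in the other two, CBLM462 of A391T and CBLM479 of wild type. Those libraries had 1180 and 1285 TPM of Mt1 and 1295 and 1441 TPM of Mt2, each above every cortex library. The part of choroid plexus in the levels of these genes was not tested. In wild-type cortex, CTX480 had the highest Mt1, Mt2 and Mt3 and also the highest sums of 5 endothelial markers, 451 TPM against 276 to 346 TPM in the other 7 cortex libraries, and of 5 blood markers, 440 TPM against 286 to 354 TPM. It also had the lowest sum of cortex markers of the 8 cortex libraries, 2396 TPM, the highest share of entries not on one gene, 27.1%, and, after CBLM445, the most genes over 2-fold from the region median, 366. Across genes its differences from that median had a Spearman rho of -0.458 with transcript length, the lowest of all libraries, and Mt1, Mt2 and Mt3 are the shortest of the 10 genes. The part of these in the levels of CTX480 was not tested.

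In A391T mice 7 of the 10 genes passed between the regions over 16005 genes. Slc30a1, Slc30a3, Slc30a4 and Slc39a10 were higher in cortex, 4 of 10, where 31.3% of all genes tested were, and Slc39a1, Mt1 and Mt2 in cerebellum, 3 of 10, where 31.6% were. Slc30a3 and Slc39a10 passed a 2-fold change toward cortex as 14.9% of all genes did. Toward cerebellum 0 of the 10 genes passed it, with 9.8% of all genes. With the names of the RPKM table Mt2 passed it in the mice named A391T, at 1.01, and not in those named wild type, at 0.89. The median log2 fold change of the 10 genes was -0.02 and that of all genes 0.03. TPM of the regions did not overlap for 6 of the 10 genes and for 61.8% of all genes.

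Slc30a3 had 282, 282, 328 and 301 TPM in the A391T cortex libraries, and 4.73, 5.03, 6.53 and 7.86 TPM in the cerebellum libraries of the same mice. It gave a log2 fold change of -5.74 (SE 0.14, adjusted p = 1.1e-09 from edgeR), near that in wild-type mice. Slc39a10 had 159.8, 166, 174 and 151 TPM in cortex and 19.1, 45.5, 46.0 and 48.7 TPM in the cerebellum libraries of the same mice, where CBLM445 lay far under the other three. Its log2 fold change was -2.15 (SE 0.22, adjusted p = 1.6e-05), and without CBLM445 it was -1.93 (adjusted p = 2.8e-11). Mt1 had 679, 724, 686 and 791 TPM in cortex and 719, 1127, 1138 and 1180 TPM in cerebellum, and Mt2 had 523, 622, 559 and 615 TPM in cortex and 662, 1246, 1222 and 1295 TPM in cerebellum. CBLM445 again had the lowest cerebellar level of both genes. The log2 fold change was 0.42 for Mt1 (SE 0.12, adjusted p = 0.013) and 0.82 for Mt2 (SE 0.16, adjusted p = 0.0015), and without CBLM445 it was 0.54 and 0.98.

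Slc39a12 and Mt3 did not pass in A391T mice, and both passed without CBLM445. Slc39a12 had 47.8, 50.8, 57.4 and 47.1 TPM in the A391T cortex libraries, and 43.5, 71.9, 73.9 and 70.0 TPM in the cerebellum libraries of the same mice. Its log2 fold change was 0.24 (SE 0.13, adjusted p = 0.14 from edgeR), and without CBLM445 it was 0.37 (adjusted p = 1.9e-04). With CBLM445 kept, Slc39a12 also passed in 1 model of all 16 libraries (adjusted p = 0.042) and with library totals (adjusted p = 0.036). Mt3 had 2030, 2159, 2179 and 2413 TPM in cortex and 2310, 1869, 1932 and 1784 TPM in the cerebellum libraries of the same mice. Its log2 fold change was -0.25 (SE 0.11, adjusted p = 0.083), and without CBLM445 it was -0.37 (adjusted p = 2.1e-04). Without that library 9 of the 10 genes passed, as in wild-type mice, a count given without the share of all genes in that fit. Slc30a5 was the exception in both, with a log2 fold change of 0.22 (SE 0.12, adjusted p = 0.14) in A391T mice. In these mice it was 0.067 without CBLM445, and it passed with library totals, at 0.35 (adjusted p = 0.022).

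The difference between regions was not found to depend on genotype for any of the 10 genes. The interaction, the log2 fold change between regions in A391T mice less that in wild-type mice, ran from -0.22 for Mt2 (SE 0.23) to 0.25 for Mt3 (SE 0.16), with adjusted p from 0.77 to 0.96 from edgeR over all 16 libraries. Without CBLM445 these values were -0.056 for Mt2 and 0.12 for Mt3, and the 10 genes ran from -0.063 for Slc30a1 to 0.16 for Slc39a10. No member had an unadjusted p under 0.05, and DESeq2 called 0 members as well. Of all 16589 genes tested, 0% passed the adjusted p in edgeR, with 805 at an unadjusted p under 0.05, and DESeq2 called 1.

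The comparison of A391T with wild-type mice sets the levels of zinc genes in mice labelled with a variant metal importer beside those of the wild type. In cortex 0 of the 10 genes passed the adjusted p from edgeR, as did 0.0126% of all 15815 genes, and 0 of the 10 had an unadjusted p under 0.05. The largest difference was that of Mt1, with 845 ± 152 TPM in wild-type and 720 ± 51.2 TPM in A391T cortex (SD, n = 4 each), a log2 fold change of -0.25 (SE 0.12, adjusted p = 1.0 from edgeR). Mt2 followed with 666 ± 144 and 580 ± 47.1 TPM, a log2 fold change of -0.22 (SE 0.13). Without CTX480 Mt1 was -0.115 and Mt2 -0.090, and Slc39a10 then had the largest difference, at -0.18. TPM of the genotypes overlapped for every member, where 3.24% of all genes did not overlap. DESeq2 called 0 of the 10 genes and 14 genes in all.

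In cerebellum 0 of the 10 genes passed the adjusted p from edgeR, as did 0% of all 15668 genes, of which 1340 had an unadjusted p under 0.05. Of the 10 genes, 2 did so in the edgeR quasi-likelihood test, Mt1 (unadjusted p = 0.023) and Mt2 (unadjusted p = 0.029). Mt1 had from 1243 to 1434 TPM in wild-type and from 719 to 1180 TPM in A391T cerebellum, and Mt2 from 1339 to 1687 and from 662 to 1295 TPM. Every A391T library lay under every wild-type library for these genes, 2 of 10, where 7.83% of all genes did not overlap. The log2 fold change was -0.32 for Mt1 (SE 0.12) and -0.42 for Mt2 (SE 0.17), each with an adjusted p of 0.53. Without CBLM445 it was -0.21 and -0.27. The other 8 genes lay between -0.16 for Slc39a10 and 0.23 for Slc30a5, and with CBLM445 left out Slc39a10 was 0.044 and Slc30a5 0.075. Slc39a12 and Mt3, at -0.12 and 0.14 with that library, were -0.0021 and 0.0035 without it. DESeq2 called 0 of the 10 genes and 37 genes in all.

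These differences moved with the names of the libraries. With the names of the RPKM table, 0 of the 10 genes passed in either region. Mt1 and Mt2 in cerebellum then had log2 fold changes of -0.11 and -0.16 and overlapping TPM, and with CBLM445 also left out both were 0.03. In cortex Mt1 kept -0.25 and Mt2 was -0.30 under the names of the table. Slc30a1 in cortex turned from 0.09 to -0.18 (unadjusted p = 0.0095, adjusted p = 0.88), and its TPM did not overlap, with 27.3 to 30.5 TPM in wild-type and 24.4 to 27.0 TPM in A391T libraries. It was the 1 such gene of the 10 in cortex, where 3.04% of all genes did not overlap under these names. In cerebellum it was Slc39a10, with 46.0 to 48.7 TPM in wild-type and 19.1 to 45.5 TPM in A391T libraries, where 6.9% of all genes did not overlap. With the 4 mice whose names are the same in both sources, 2 of each genotype, Mt1 and Mt2 were -0.48 each in cortex and -0.45 and -0.61 in cerebellum, with adjusted p of 0.86 in cortex and 0.47 in cerebellum. The sum of 10 genes that respond to glucocorticoids ran from 332 to 499 TPM in wild-type and from 429 to 505 TPM in A391T cortex, and from 407 to 536 and from 505 to 520 TPM in cerebellum, with the lowest sums in CTX479, CTX480, CBLM479 and CBLM480. Their part in the values of Mt1 and Mt2 was not tested.

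**Figure D4:**
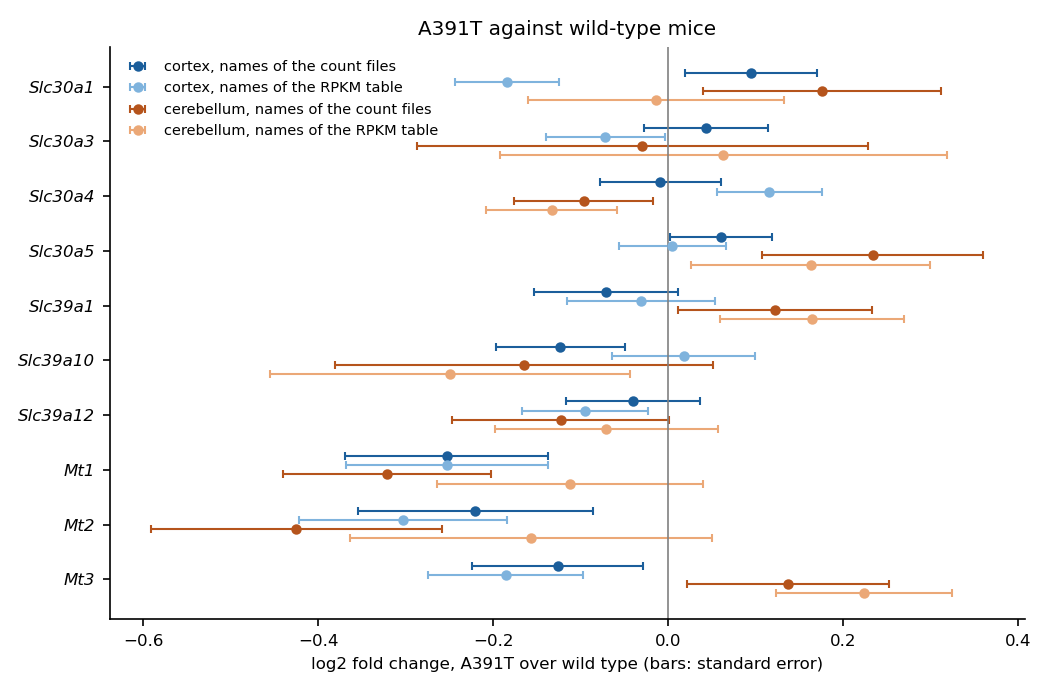
Log2 fold change of A391T over wild-type mice (x axis) for the 10 genes (y axis) from edgeR, in cortex and cerebellum, under the names of the count files and under those of the RPKM table, with bars of 1 standard error and 4 libraries per group. None of these values passed the adjusted p, and the values of Mt2 in cerebellum are -0.42 and -0.16 under the respective names.

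Slc39a8 itself was low in every library. In cortex it had 2.52, 2.75, 1.66 and 1.63 TPM in the wild-type and 2.68, 2.79, 1.98 and 2.38 TPM in the A391T libraries. In cerebellum it had 3.16, 2.78, 2.61 and 2.46 TPM in the wild-type and 2.79, 2.70, 2.46 and 2.39 TPM in the A391T libraries. By these names the ranges of the groups overlapped between regions and between genotypes. A391T over wild type gave a log2 fold change of 0.17 (SE 0.18, adjusted p = 1.0 from edgeR) in cortex and of -0.03 (SE 0.13, adjusted p = 0.93) in cerebellum. With the names of the RPKM table the genotypes did not overlap for Slc39a8 in either region. Its level was then from 1.63 to 2.38 TPM in wild-type and from 2.52 to 2.79 TPM in A391T cortex, and from 2.39 to 2.61 TPM and from 2.70 to 3.16 TPM in cerebellum, with the A391T libraries higher in both. The log2 fold changes were 0.47 (SE 0.13, unadjusted p = 0.0037, adjusted p = 0.88 from edgeR) in cortex and 0.27 (SE 0.10, unadjusted p = 0.026, adjusted p = 0.55) in cerebellum, neither past the adjusted p. The variant changes an amino acid and the level does not check the genotype labels.

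Among 19 further genes of the same pathway, the other Slc30 and Slc39 genes, Mt4 and Mtf1, 17 had enough counts for the test. Mt4 had 0 counts in each of the 16 libraries, which allows up to 3 counts each, and Slc30a8, the exporter of insulin granules, had at most 1 count. In wild-type mice 4 of the 17 were higher in cortex and 5 in cerebellum, where 33.1% and 34.7% of all genes tested were, and in A391T mice 4 and 4, where 31.3% and 31.6% were. Past both criteria in wild-type mice were Slc30a2, a vesicular exporter, and Slc30a10, now known mainly as a manganese exporter, both toward cortex, and Slc39a13, a transporter of the secretory pathway, and Slc39a4, the importer of intestinal zinc uptake, both toward cerebellum. Slc30a2 had a log2 fold change of -3.32 (SE 0.23) in wild-type and -3.50 (SE 0.16) in A391T mice, Slc30a10 of -1.35 (SE 0.07) and -1.19 (SE 0.10), and Slc39a13 of 1.21 (SE 0.06) and 1.17 (SE 0.07). Slc39a4 had 1.63 (SE 0.54) in wild-type mice and 0.88 (SE 0.63), not past the test, in A391T mice. Its level was 0.0719 and 0.403 TPM in the pair of cerebellum libraries low in choroid plexus markers and from 1.75 to 3.88 TPM in the other 6. The part of choroid plexus in the level of Slc39a4 was not tested. Mtf1 did not pass in either genotype, with log2 fold changes of 0.03 (SE 0.10) and 0.04 (SE 0.07). In the genotype comparisons and the interaction 0 of the 17 genes passed in edgeR, with 3 of them at an unadjusted p under 0.05 in cerebellum, Mtf1 among them at 0.19 (SE 0.06). With DESeq2 0 of the 17 passed as well. With the names of the RPKM table, 0 of the 17 passed too, and Mtf1 in cerebellum was 0.077 (SE 0.087).

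**Figure D5:**
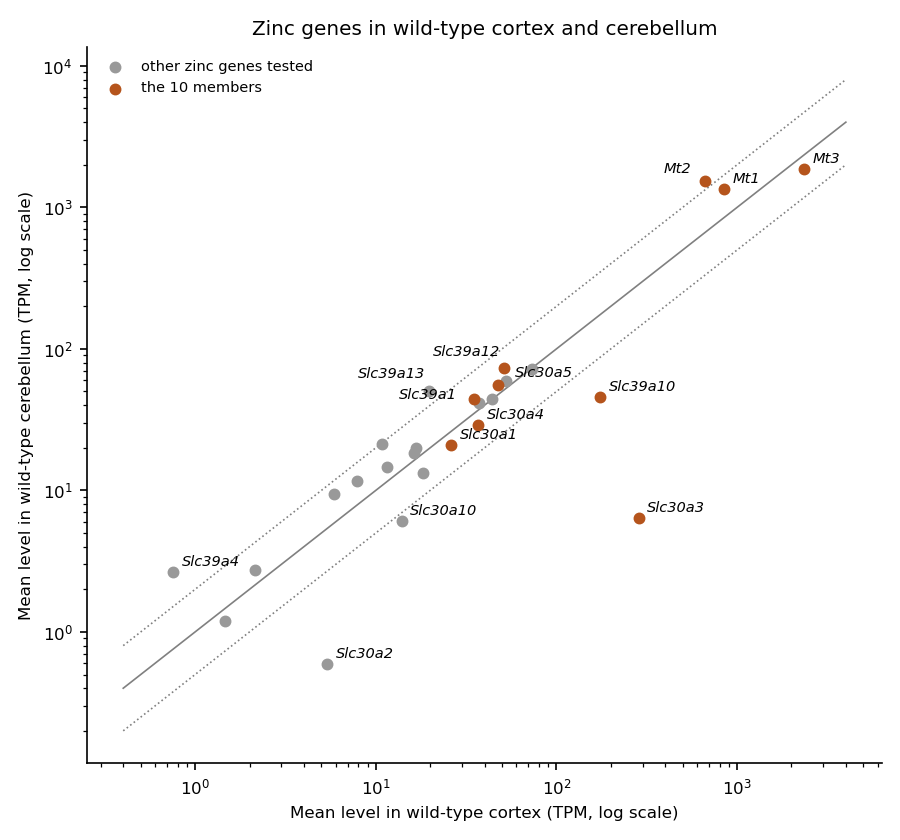
Mean level in wild-type cortex (x axis) against that in wild-type cerebellum (y axis), both in TPM on log scales with 4 libraries each, for the 10 genes and 17 other zinc genes. The solid line marks equal levels and the dotted lines a 2-fold difference in TPM, and the named genes are the 10 and those past both criteria. Slc30a3, at 285 and 6.35 TPM, lies farthest from the line.

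Within groups, Slc30a3 and Slc39a10 varied most among the 10 genes, with an SD pooled over the 4 groups of 0.298 and 0.297 on the log2 CPM scale, and Slc30a4 least, with 0.106. Without CBLM445 Slc30a3 remained first at 0.304, Mt2 followed at 0.195, Slc39a10 had 0.0946 and Slc30a5 was the least variable at 0.0615. The place of Slc30a3 came from cerebellum, where its counts were low and it had 3.54 ± 1.33 CPM in wild-type mice, against 162 ± 15.1 CPM in wild-type cortex (SD, n = 4 each). In wild-type cortex Mt2 varied more relative to its level, with 101 ± 24.3 CPM (SD, n = 4). The genes whose deviations from the group means were most like those of Slc30a3 over the 16 libraries were Mbp, Klk6 and Wipf1, with Pearson r of 0.90, 0.87 and 0.87, and without CBLM445 they were Gna12, Pdzrn4 and Mbp. Those most like Slc39a10 were Vezf1, 2210018M11Rik and Srp72, each with r of 0.98. For Slc39a10 this rested on CBLM445, without which the 3 genes most like it were Ston2, Sema6d and Sgsh. Mt1 and Mt2 went together with r of 0.96, and of 0.93 without that library, where Mt1 and Mt3 had r of -0.03 with it and 0.75 without it. The libraries share depth and tissue composition in these correlations, and they are a description of 16 points.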

How the data were processed

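Tissue RNA of 8 mice was sequenced by the authors from polyA-selected directional libraries, 1 per region and mouse. Per the submitters' processing notes and the study's methods, reads were mapped to mm9 by STAR, and HTSeq counted them on Ensembl genes. The deposited counts are raw whole reads per gene, taken from both strands. An RPKM table was deposited as well and is used here only for gene lengths and library names. Entries on no single gene, from 21.4% to 27.1% of all entries of a library, stayed out of totals and tests.

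Groups follow the labels. Counts were tested in edgeR 4.0.16 (R 4.3.3, limma 3.58.1) with its quasi-likelihood test on TMM-scaled libraries of genes kept by filterByExpr, and p-values were adjusted by Benjamini-Hochberg over every tested gene. The criteria were an adjusted p under 0.05 and, between regions, a 2-fold change. P-values measure the spread between mice. On simulated counts for wild-type regions (15900 genes), 86 genes were changed by a log2 of 1 and 106 by a log2 of 2. The test called 82.6% and 100% of these, with 10 false calls. Smaller changes, as most of the 10 genes had, were not simulated, nor were changes in as many genes as passed between the regions. Levels, ratios and sign-flip tests used Python 3.11.15, numpy 2.4.6, pandas 2.3.3 and scipy 1.17.1. Gene coordinates come from an Ensembl-based annotation on NCBIM37, and promoter bases those of RefSeq.

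The same mouse numbers stand in both regions and the study's methods name the same animals, so the numbers pair the libraries. Across genes, deviations from the group mean in cortex and in cerebellum correlated with r from -0.10 to 0.12 for the same mouse and from -0.17 to 0.15 for different mice.

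The members, the 19 further genes and the marker lists were chosen with earlier results of these data known. Further genes are named where they pass both criteria between regions or the adjusted p in another comparison, and Mtf1, Mt4 and Slc30a8 were named after their values were seen, as were the ratios of 1 gene to another. The genes most like a member are given for the pair with the largest SD within groups. Alternatives were RLE size factors, no filter, DESeq2 1.42.0, a test against a 2-fold change, other library names, the mice whose names match, 1 model for all libraries, regions without genotype, the mouse as a block, and each library left out. Library totals, the names of the table without CBLM445, and coding transcript lengths were added after seeing the data.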

Additional observations from a re-analysis of the deposited data

Results flagged for a closer look

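In A391T cerebellum the library CBLM445 lay apart from the other three for 4 genes, as the lowest of 4 by a gap over the range above Dixon's critical value for 4 samples. It had 19.1 TPM of Slc39a10 against 45.5 to 48.7 TPM in the others, 43.5 TPM of Slc39a12 against 70.0 to 73.9 TPM, 719 TPM of Mt1 against 1127 to 1180 TPM, and 662 TPM of Mt2 against 1222 to 1295 TPM. Of 44 sets of 4 values examined, each of 1 gene in 1 group, these 4 met the rule. All 4 come from 1 library, so they are not separate events to set against the rate of about 1 in 20 that chance gives. In this library 969 of 16589 genes lay at least 2-fold from the median of their region, against 91 to 366 in the other 15 libraries. Of the cerebellum libraries it had the lowest astrocyte and microglia sums, 5361 and 55.6 TPM. It had the highest Bergmann glia and blood sums, 2269 and 593 TPM, and the lowest share of entries not on one gene, 21.4%. The cause was not tested.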

How the results depend on the processing

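Of the 10 genes, 9 passed the adjusted p between regions in wild-type mice, and from 8 to 9 did so without each library in turn. In A391T mice 7 passed, from 6 to 9 without each library in turn, and 3 with the mice whose names match in both sources, a fit of 2 mice per genotype. Counts from fits other than the main one are given without the share of all genes in the same fit. A rise or fall in them cannot be laid to the 10 genes alone. With the mouse as a replicate block 8 passed in wild-type mice, where Slc39a1 had 0.20 (adjusted p = 0.073 from edgeR), and 7 in A391T mice, and the block changed no other call. With matching mice the calls of Slc39a12, Mt1 and Slc39a1 in wild-type mice were lost (adjusted p = 0.092, 0.11 and 0.28 from edgeR), as were those of Slc30a1, Slc39a1, Mt1 and Mt2 in A391T mice (0.37, 0.069, 0.23 and 0.11). In A391T mice Slc39a12 gained a call in 1 model of all libraries and with library totals, and Slc30a5 with library totals in both genotypes. Slc39a1 in A391T mice lost its call without CTX446 (0.061) or CTX462 (0.052). Between genotypes and in the interaction 0 of the 10 genes passed under every alternative run, so the values that changed sign below had not passed in either fit, and the cause was not tested.

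All values are log2 fold changes. Between genotypes in cortex, the names of the RPKM table gave -0.18 for Slc30a1, -0.0715 for Slc30a3, 0.12 for Slc30a4 and 0.018 for Slc39a10, and the mice with matching names -0.089, -0.0285 and 0.11 for the first 3 of these. Leaving out 1 library gave -0.0067 to 0.082 for Slc30a3, -0.042 to 0.055 for Slc30a4 and -0.097 to 0.011 for Slc39a12.

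Between genotypes in cerebellum, the names of the table gave -0.014 for Slc30a1 and 0.063 for Slc30a3, and matching mice 0.045 for Slc30a3. The names of the table without CBLM445 gave -0.20 for Slc30a1, 0.15 for Slc30a3, -0.011 for Slc30a5, 0.0575 for Slc39a12, 0.025 for Mt1 and 0.025 for Mt2. Leaving out 1 library gave -0.20 to 0.24 for Slc30a3, -0.0051 to 0.18 for Slc39a1 and -0.27 to 0.044 for Slc39a10, the last of these at 0.044 without CBLM445.

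In the interaction, the names of the table gave 0.13 for Slc30a3, 0.014 for Slc39a12, 0.13 for Mt1 and 0.13 for Mt2, and with the replicate block as well 0.11, 0.085 and 0.074 for Slc30a3, Mt1 and Mt2. Matching mice gave 0.0535 for Slc30a3 and 0.0028 for Mt1. The names of the table without CBLM445 gave -0.016 for Slc30a1, 0.21 for Slc30a3, -0.021 for Slc30a5, 0.15 for Slc39a12, 0.27 for Mt1 and 0.32 for Mt2. Leaving out 1 library gave -0.063 to 0.17 for Slc30a1, -0.25 to 0.19 for Slc30a3, -0.16 to 0.16 for Slc39a10, -0.15 to 0.033 for Slc39a12 and -0.21 to 0.037 for Mt1.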
